A study of Mus musculus with 7 samples.

Results

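The imprinted growth gene network is described here in whole hearts of dystrophic mice. It comprises Plagl1, H19, Igf2, Igf2r, Meg3, Dlk1, Cdkn1c, Peg3, Grb10 and Mest, and its members on the array are all probe sets annotated to 1 of these genes alone. That rule gave 30 of the 45037 probe sets on the Affymetrix mouse genome array, for 9 of the 10 genes and out of 18193 genes with a probe set of their own. H19 had none, because its probe set is also annotated to a microRNA. The network was chosen by the values of Plagl1 in these same hearts, since Plagl1 was higher in every IKKβ-deleted heart, so its values are a description and were not tested.

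Total RNA came from 7 whole hearts, 1 heart per array. Every mouse was mdx, that is, without dystrophin in its muscle, had a floxed IKKβ gene and was 7 months old. The 4 mdx HRTΔIKKβ mice also carried Myh6-cre, in which the α-myosin heavy chain promoter drives Cre recombinase in cardiomyocytes. The 3 mdx IKKβf/f mice were littermates without Cre, so effects of Cre and of the deletion cannot be told apart, and no dystrophin-positive heart was on these arrays. IKKβ is the kinase that activates canonical NF-κB signaling. The study's methods state that male mice were used. Values are log2 units after robust multi-array averaging (RMA, which corrects background, equalizes the distribution of values between arrays and summarizes the probes of a probe set). A difference is always mdx HRTΔIKKβ minus mdx IKKβf/f, and in whole hearts fewer cells of a type and less RNA per cell cannot be told apart.

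Imprinted genes are transcribed mainly from the allele of a single parent, and DNA methylation laid down in the germ line marks which allele that is. Many of them control fetal and early postnatal growth, and their RNA falls in most organs, the heart included, as growth ends. Plagl1 (also called Zac1) encodes a zinc finger transcription factor that restrains proliferation and is known as a regulator of other imprinted genes. The array measures the RNA of both alleles together, so it holds no information on allelic use.

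The 250 bases upstream of the RefSeq transcription start (GRCm38.p6) are shown for Plagl1, because it led the choice of the network, for Peg3, the partner with the widest difference of means, and for Igf2r, whose promoter is known to be methylated on the silent paternal allele. Capitals mark CG dinucleotides, the substrate of imprinting methylation, and each strand is read 5′ to 3′ toward the start.
Plagl1, chr10:13090582-13090831, plus strand: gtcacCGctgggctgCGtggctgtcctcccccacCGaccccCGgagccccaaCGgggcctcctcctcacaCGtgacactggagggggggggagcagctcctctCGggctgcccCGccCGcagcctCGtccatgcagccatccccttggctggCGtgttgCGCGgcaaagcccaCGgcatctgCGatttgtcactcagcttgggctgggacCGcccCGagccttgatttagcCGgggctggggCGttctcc
Peg3, chr7:6730420-6730669, minus strand: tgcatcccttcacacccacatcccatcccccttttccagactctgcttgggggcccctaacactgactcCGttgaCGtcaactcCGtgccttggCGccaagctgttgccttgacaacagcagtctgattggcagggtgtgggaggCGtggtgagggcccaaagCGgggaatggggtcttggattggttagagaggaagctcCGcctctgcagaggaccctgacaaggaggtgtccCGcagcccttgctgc
Igf2r, chr17:12769707-12769956, minus strand: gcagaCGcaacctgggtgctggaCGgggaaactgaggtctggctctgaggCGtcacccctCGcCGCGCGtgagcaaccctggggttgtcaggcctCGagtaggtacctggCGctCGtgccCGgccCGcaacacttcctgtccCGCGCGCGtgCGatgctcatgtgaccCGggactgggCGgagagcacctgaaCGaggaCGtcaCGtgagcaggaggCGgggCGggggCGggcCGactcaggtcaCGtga

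The Plagl1 window held 19 CG dinucleotides, more than 80.3% of 32851 such windows, whose median was 6. Its GC content was 70.4%. The Igf2r window held 27 CG and the Peg3 window 8. A window was found for 8 of the 10 genes, 15 windows in all, and 0 of these matched the NF-κB consensus motif on either strand, which 7.25% of all windows did. The palindrome GGGGCCCC, the core of the element that Plagl1 is known to bind, occurred in the Peg3 window, 201 bases before the start, and in 0.889% of all windows. These matches describe letters in a window and no binding was measured.

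Plagl1 was measured by 3 probe sets. The brightest, 1426208_x_at, read 10.11, 10.29, 10.45 and 10.69 in mdx HRTΔIKKβ hearts 1 to 4 and 9.65, 8.87 and 9.32 in mdx IKKβf/f hearts 1 to 3. Every IKKβ-deleted heart was above every control, with a gap of 0.46 between the nearest hearts of the groups. Group means were 10.39 ± 0.24 (SD, n = 4) and 9.28 ± 0.39 (SD, n = 3), a difference of 1.10 ± 0.20 (SE), or 2.15-fold. The controls were the more scattered group, and mdx IKKβf/f heart 2 was the lowest of all.

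The dimmer Plagl1 probe sets ran the same way over a much smaller range. Probe set 1450533_a_at read 5.67, 5.70, 5.93 and 5.87 against 5.54, 5.49 and 5.45, and its groups did not overlap. Probe set 1438588_at read 6.95, 6.72, 6.90 and 7.01 against 6.57, 6.57 and 6.72, so that mdx HRTΔIKKβ heart 2 and mdx IKKβf/f heart 3 had the same value. The differences were 0.30 ± 0.08 (SE) and 0.28 ± 0.08 (SE). An x_at probe set can hold probes that also match other transcripts. With x_at and s_at probe sets left out, the difference for Plagl1 was 0.28 ± 0.08 (SE), and the mean of its 3 probe sets differed by 0.56 ± 0.10 (SE). Leaving out 1 heart at a time kept the brightest probe set between 0.90, without mdx IKKβf/f heart 2, and 1.29, without mdx IKKβf/f heart 1.

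**Figure D1:**
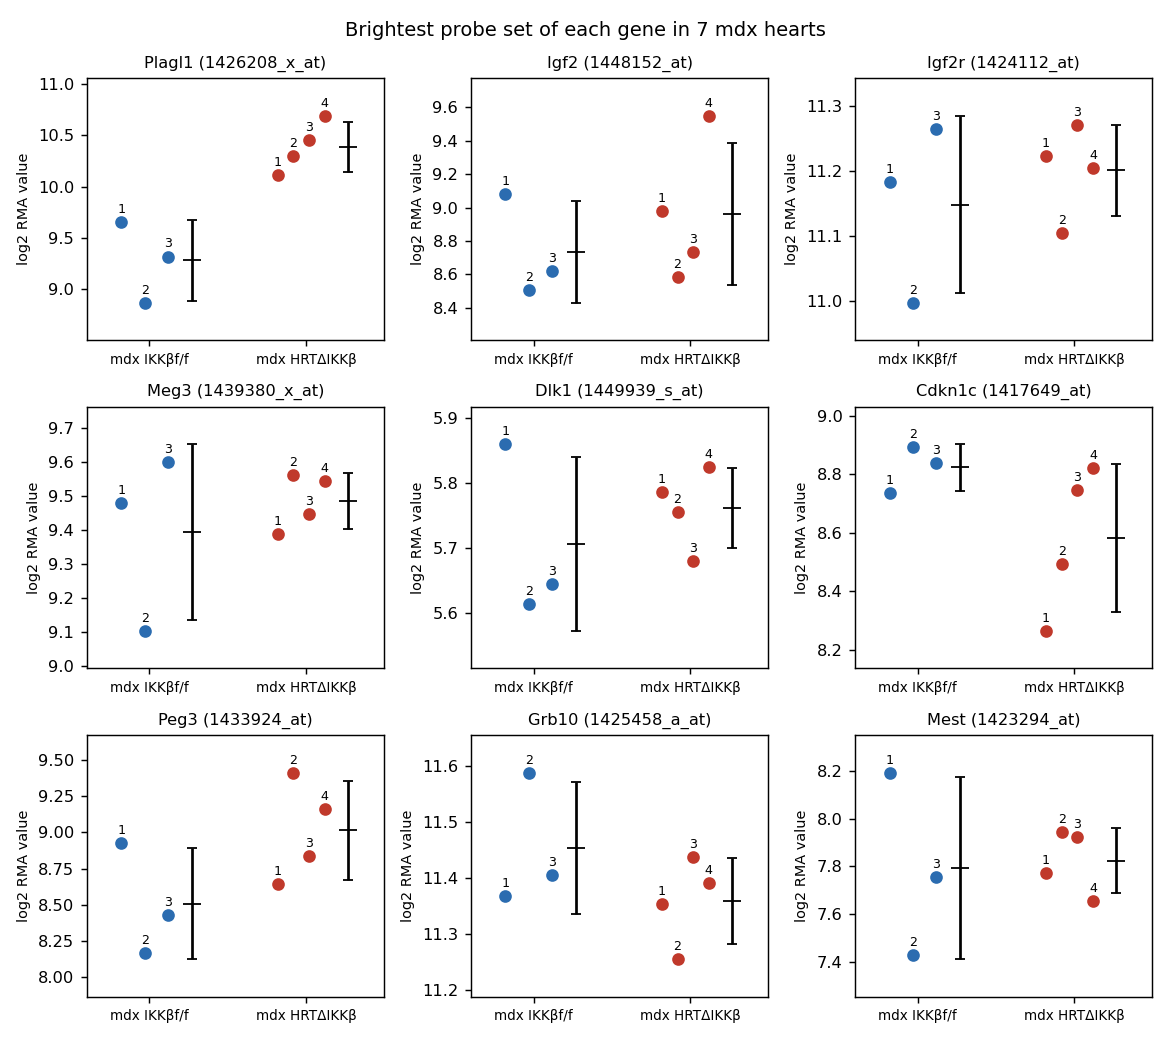
Log2 RMA value of the brightest probe set of each member gene in each heart, with the replicate number above each point and the group mean ± SD beside the points (4 mdx HRTΔIKKβ hearts in red, 3 mdx IKKβf/f hearts in blue). Plagl1 is the only panel in which every mdx HRTΔIKKβ heart lies above every mdx IKKβf/f heart, which is how the network was chosen, and mdx IKKβf/f heart 2 is the lowest heart in 6 of the 8 partner genes.

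Over the whole array, the smallest adjusted p was 0.34 (limma, Benjamini-Hochberg) and 0 probe sets passed an adjusted p of 0.05, which is 0% of those tested. At an unadjusted p of 0.05, 2735 probe sets passed, or 6.07%. By the methods' t-test, run on the same values, 0 passed adjustment and 2086 passed unadjusted. At least 1.5-fold differences (0.585 on the log2 scale) were found in 465 probe sets, or 1.03%, and 0.79% were higher by that much. Groups did not overlap in 5.44% of probe sets, 3.01% higher and 2.44% lower in mdx HRTΔIKKβ hearts. Ikbkb, the targeted gene, read 8.44, 8.86, 8.75 and 8.82 in mdx HRTΔIKKβ hearts and 8.82, 9.03 and 8.86 in mdx IKKβf/f hearts on the brightest of its 5 probe sets, a difference of -0.18 ± 0.11 (SE; limma adjusted p = 0.80) with overlapping groups. Its other probe sets are not reported here. By quantitative PCR on whole-heart RNA, the paper reported reduced Ikbkb in mdx HRTΔIKKβ hearts. All 8 cardiomyocyte markers were bright in every heart, 7 of them close to the highest value on the arrays, 15.09, where a signal can saturate, so their small spread between hearts (score within 0.031 of the average) does not measure how alike the hearts were.

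The 8 partner genes were measured by 27 probe sets, and mdx HRTΔIKKβ hearts had the higher mean on 20 of them and the lower mean on 7. Meg3 alone gave 9 of the 20, and probe sets of a gene share their RNA. By the brightest probe set, 6 of the 8 partner genes and 47.7% of all genes had the higher mean, and this count was not tested. The median difference of the 27 probe sets was 0.05, beside -0.01 over all probe sets, and the range ran from -0.24 to 0.51. None of the 27 reached 1.5-fold and none passed the adjusted threshold, with limma adjusted p from 0.80 to 0.99. At an unadjusted p of 0.05, 2 of 27 passed (7.41%), near the 6.07% of the array. The same 2, Grb10 1425457_a_at and Igf2r 1424111_at, were the ones whose groups did not overlap, again 7.41% beside 5.44%.

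**Figure D2:**
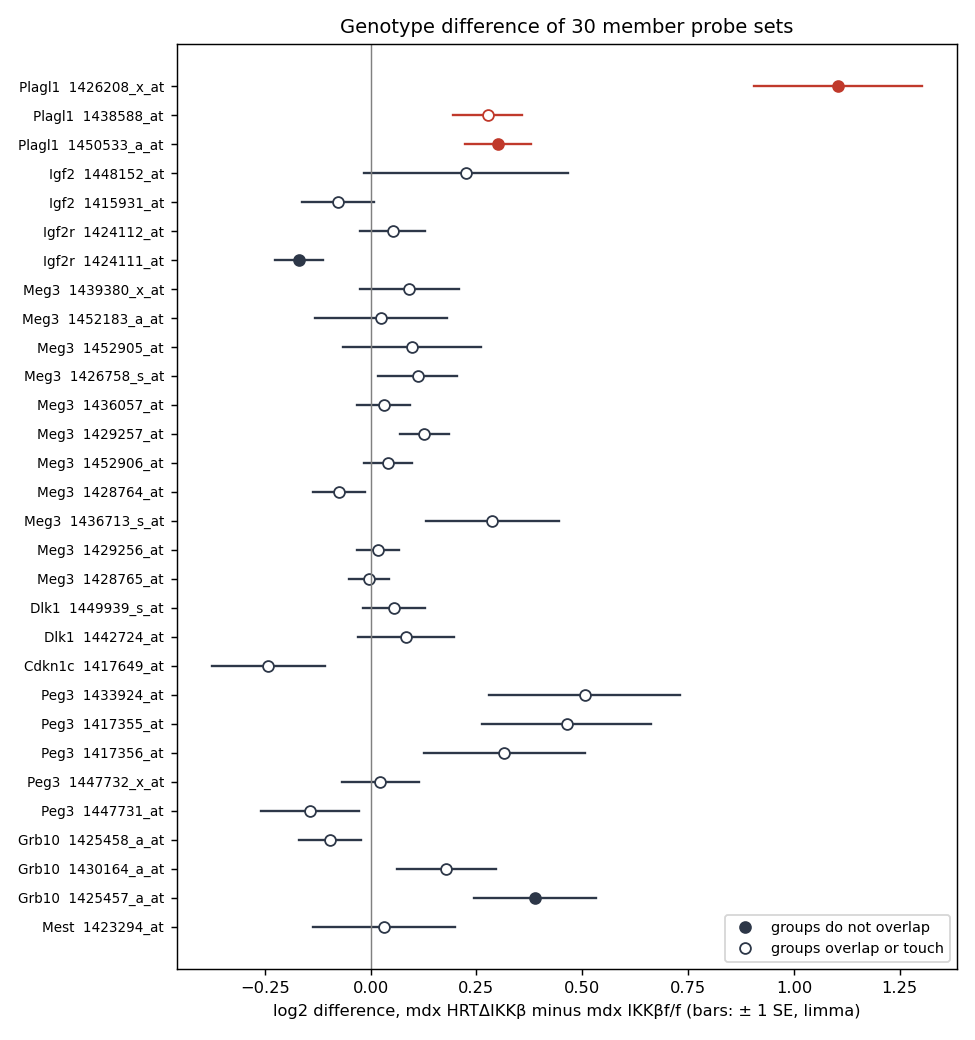
Difference of group means (mdx HRTΔIKKβ minus mdx IKKβf/f, log2) for all 30 member probe sets, with bars of 1 SE from limma, filled points where the groups do not overlap and Plagl1 in red. The brightest Plagl1 probe set stands at 1.10, and the partner probe sets lie between -0.24 and 0.51 on both sides of 0.

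Igf2 encodes insulin-like growth factor 2, the paternally expressed fetal growth factor at the centre of the network. Its brighter probe set, 1448152_at, read 8.98, 8.58, 8.73 and 9.55 in mdx HRTΔIKKβ hearts against 9.08, 8.504 and 8.62 in mdx IKKβf/f hearts. The highest heart was mdx HRTΔIKKβ heart 4, and the groups overlapped over most of their range. The difference was 0.22 ± 0.24 (SE; 95% interval -0.33 to 0.78; limma adjusted p = 0.86). It was 0.03 without mdx HRTΔIKKβ heart 4 and 0.40 without mdx IKKβf/f heart 1. The dimmer 1415931_at had a difference of -0.08 ± 0.09 (SE), opposite in sign.

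Igf2r encodes the maternally expressed receptor that binds IGF2 and carries it to the lysosome for breakdown. Its probe sets did not give the same direction. Probe set 1424112_at read 11.22, 11.10, 11.27 and 11.21 against 11.18, 10.997 and 11.26, a difference of 0.05 ± 0.08 (SE; 95% interval -0.13 to 0.23; limma adjusted p = 0.89). Probe set 1424111_at read 10.58, 10.63, 10.68 and 10.54 against 10.73, 10.82 and 10.77. Here every mdx HRTΔIKKβ heart lay below every control, by a gap of 0.04 between the nearest hearts. The difference was -0.17 ± 0.06 (SE), with a limma adjusted p of 0.80.

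Grb10 encodes an adaptor protein that binds the insulin and IGF1 receptors and inhibits their signaling. Its 3 probe sets disagreed. The brightest, 1425458_a_at, read 11.35, 11.26, 11.44 and 11.39 against 11.37, 11.59 and 11.41, a difference of -0.09 ± 0.07 (SE; 95% interval -0.27 to 0.08; limma adjusted p = 0.82). Probe set 1425457_a_at read 7.75, 7.57, 7.66 and 7.71 against 7.47, 6.90 and 7.48. All mdx HRTΔIKKβ hearts were above all controls on it, by 0.39 ± 0.14 (SE; limma adjusted p = 0.80), and mdx IKKβf/f heart 2 was far below the rest. Probe set 1430164_a_at differed by 0.18 ± 0.12 (SE) with overlapping groups. The mean of the 3 probe sets was higher by 0.16 ± 0.07 (SE), against the sign of the brightest. Probe sets of a gene can read different transcript isoforms, and which ones these read was not analysed here.

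Cdkn1c encodes p57Kip2, a maternally expressed inhibitor of cyclin-dependent kinases that restrains growth. Its only probe set, 1417649_at, read 8.26, 8.49, 8.75 and 8.82 in mdx HRTΔIKKβ hearts against 8.74, 8.89 and 8.84 in mdx IKKβf/f hearts. Hearts 1 and 2 of the deleted group were the lowest, while hearts 3 and 4 lay among the controls. The difference was -0.24 ± 0.13 (SE; 95% interval -0.55 to 0.07; limma adjusted p = 0.80), the lowest value among the partner probe sets. It was -0.14 without mdx HRTΔIKKβ heart 1 and -0.32 without heart 4, where the unadjusted limma p went from 0.11 to 0.0397.

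Peg3, a paternally expressed zinc finger gene, had the widest difference of means among the partners. Probe set 1433924_at read 8.64, 9.41, 8.84 and 9.16 in mdx HRTΔIKKβ hearts against 8.92, 8.17 and 8.43 in mdx IKKβf/f hearts. Control heart 1 lay above 2 of the deleted hearts, and control heart 2 was the lowest. The difference was 0.51 ± 0.23 (SE; 95% interval -0.02 to 1.03; limma adjusted p = 0.80). It was 0.34 without control heart 2. Probe sets 1417355_at and 1417356_at repeated the order of the controls, with differences of 0.46 ± 0.20 (SE) and 0.32 ± 0.19 (SE). The remaining 1447732_x_at and 1447731_at were dim, with means near 4, and differed by 0.02 ± 0.09 (SE) and -0.14 ± 0.12 (SE).

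Mest, a paternally expressed gene for a protein of the α/β-hydrolase fold, was read by 1423294_at at 7.77, 7.94, 7.92 and 7.66 against 8.19, 7.43 and 7.75. The controls held both the highest and the lowest heart. Their means differed by 0.03 ± 0.17 (SE; 95% interval -0.36 to 0.42; limma adjusted p = 0.98).

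Dlk1 and Meg3 lie in the same imprinted cluster, Dlk1 as a paternally expressed transmembrane protein of the Notch ligand family and Meg3 as a maternally expressed long noncoding RNA. Dlk1 read 5.79, 5.76, 5.68 and 5.82 against 5.86, 5.61 and 5.65 on 1449939_s_at, a difference of 0.06 ± 0.07 (SE; 95% interval -0.12 to 0.23; limma adjusted p = 0.88). Its other probe set, 1442724_at, differed by 0.08 ± 0.11 (SE).

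Meg3 was read by 11 probe sets, and mdx HRTΔIKKβ hearts had the higher mean on 9, with differences from -0.08 to 0.29. The brightest, 1439380_x_at, read 9.39, 9.56, 9.45 and 9.54 against 9.48, 9.10 and 9.60. Control hearts 1 and 3 lay within or above the deleted hearts and control heart 2 below all of them. The difference was 0.09 ± 0.12 (SE; 95% interval -0.18 to 0.36; limma adjusted p = 0.88). On 5 of the 11 probe sets, mdx IKKβf/f heart 2 was the lowest of the 7 hearts. The widest Meg3 difference, 0.29 ± 0.16 (SE) on 1436713_s_at, included that heart at 5.58, with the other hearts between 6.08 and 6.44.

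The same control heart recurred across the network. It was the lowest of the 7 hearts on 13 of the 27 partner probe sets (48.1%), against 13.5% of all probe sets, and the highest on 7 (25.9%), against 20.7%. This is a description, since probe sets of a gene share their RNA. Without this heart, the brightest probe sets of Igf2r, Meg3 and Mest changed the sign of their difference, to -0.02, -0.05 and -0.15.

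Markers of other cells also differed between hearts. The atrial marker score (mean centred log2 value of Myl7, Myl4, Sln, Nppa and Stard10) was -0.26, 0.38, 0.75 and 0.98 in mdx HRTΔIKKβ hearts and 0.58, -2.12 and -0.31 in mdx IKKβf/f hearts. All 5 markers were lowest in mdx IKKβf/f heart 2. The fibroblast, macrophage, mesothelial, adipocyte and endothelial scores were also lowest in that heart, at -0.35, -0.30, -0.58, -1.33 and -0.10. Scores of the other cell types were not. Within each group, Plagl1 1426208_x_at ordered the hearts as the atrial score did. It was the only member probe set of 30 to do so in both groups, beside 0.901% of all probe sets. The dimmer Plagl1 probe sets did so in neither group. That share holds for the atrial score alone, and heart orders by the other marker scores were not compared. With the atrial score added to the fit, a setting chosen after these values were seen, the Plagl1 difference was 0.77 ± 0.08 (SE), and the brightest probe sets of Igf2, Igf2r, Meg3, Dlk1 and Mest had differences below 0, from -0.0028 to -0.19.

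Some non-muscle markers separated the groups as Plagl1 did. The macrophage score of 7 genes ran from 0.00 to 0.28 in mdx HRTΔIKKβ hearts and from -0.30 to -0.17 in mdx IKKβf/f hearts. The mesothelial score of 6 genes, markers of the cells that cover the heart, ran from -0.15 to 1.17 and from -0.58 to -0.56, with no overlap. The fibroblast score of 7 genes overlapped, from -0.23 to 0.18 and from -0.35 to 0.16. Fast skeletal muscle markers, 9 genes, were high in mdx IKKβf/f heart 1 at 4.70 and in heart 3 at 1.002. Their score was -1.375 in mdx IKKβf/f heart 2 and ran from -1.62 to 0.24 in mdx HRTΔIKKβ hearts, so the groups overlapped. The muscle regeneration score of 6 genes was 1.26 in mdx IKKβf/f heart 1 and between -0.43 and -0.04 in the other hearts. In mdx IKKβf/f heart 1, Mest 1423294_at and Dlk1 1449939_s_at were highest, while the dimmer Dlk1 1442724_at was lowest.

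Markers of airway, B and plasma cells and adipocytes had wide differences of means and were highest in mdx HRTΔIKKβ heart 2, the heart in which Peg3 1433924_at was also highest. The airway score of 4 genes was 3.30 in that heart, from -1.24 to 1.53 in the other mdx HRTΔIKKβ hearts and from -1.52 to -0.64 in the controls. The B and plasma cell score of 5 genes was 2.42 there and ran from -1.63 to 0.82 elsewhere, and the adipocyte score of 3 genes was 1.74 there and ran from -1.33 to 0.55 elsewhere. Without that heart the Peg3 difference was 0.37. Endothelial scores of 6 genes ran from -0.10 to 0.18 and smooth muscle and pericyte scores of 6 genes from -0.43 to 0.99, highest in mdx IKKβf/f heart 3, with overlapping groups. The part of these cells in the values of Plagl1 or its partners was not tested.

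**Figure D3:**
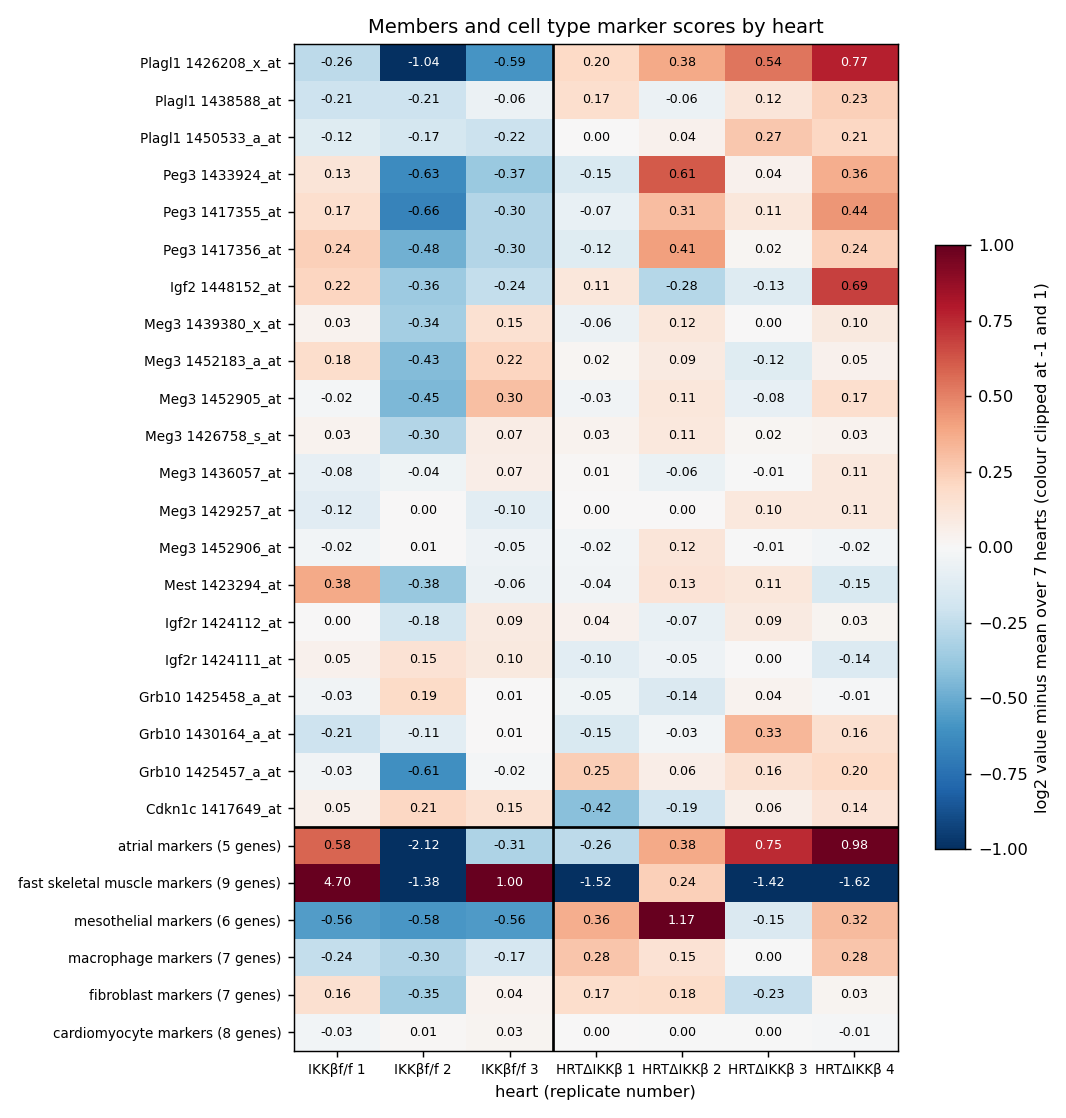
Centred log2 values (each heart minus the mean of the 7 hearts) of every Plagl1 probe set and of partner probe sets with a mean of 7 or over. Dlk1, which is dimmer, is not drawn. Below are the atrial, fast skeletal muscle, mesothelial, macrophage, fibroblast and cardiomyocyte marker scores. The column of mdx IKKβf/f heart 2 is lowest for the brightest probe sets of Plagl1, Peg3, Igf2, Meg3, Mest and Igf2r. It is also lowest for the atrial score, at -2.12, and for the mesothelial, macrophage and fibroblast scores.

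Genes were next ordered by how near their centred values over the 7 hearts lay to those of Plagl1, by the mean absolute gap in log2 units over 18192 genes. The nearest were Ccn2 (0.17), a matricellular protein of fibrosis, Cacna1h (0.18), a T-type calcium channel, Gpm6a (0.19), a membrane glycoprotein, Slc39a8 (0.20), a zinc transporter, and Gpx3 (0.23), a secreted glutathione peroxidase. The median gap over all genes was 0.55. Their group differences were 0.79, 0.73, 1.15, 1.12 and 0.64, and all 5 were lowest in mdx IKKβf/f heart 2. Both traits follow from ranking by nearness to Plagl1 and are no separate result. Among the partners, Peg3 was nearest, at a gap of 0.36 and rank 124, followed by Igf2 at rank 558. Grb10 and Cdkn1c were far down, at ranks 14603 and 17521. These ranks rest on the Plagl1 values by which the network was chosen. A higher mean in mdx HRTΔIKKβ hearts brings a gene nearer, so the ranks of the partners are no separate result either.

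The partners were compared with each other over the 7 hearts, 28 pairs on the brightest probe sets. Of these, 16 had a positive Pearson r, and 0 passed after adjustment over the pairs (exact permutation tests, two-sided; smallest adjusted p = 0.42 for r and 0.33 for Spearman's rho). Peg3 and Grb10 gave r = -0.81 (exact permutation p = 0.0260, adjusted 0.42) and rho = -0.68 (exact permutation p = 0.11, adjusted 0.58). Without the 2 hearts farthest from the median of Peg3, r was -0.02, so the relation rested on those hearts. Igf2 and Dlk1 gave r = 0.78 (exact permutation p = 0.0355, adjusted 0.42) and rho = 0.86 (exact permutation p = 0.0238, adjusted 0.33), and r was 0.70 without the 2 farthest hearts. Cdkn1c and Grb10, both restraints on growth, gave the same rho of 0.86 (exact permutation p = 0.0238, adjusted 0.33) with r = 0.64 (exact permutation p = 0.15, adjusted 0.45), and r was 0.71 without the 2 hearts farthest from the median of Cdkn1c. With the group means removed, r was -0.74 for Peg3 and Grb10, 0.75 for Igf2 and Dlk1 and 0.49 for Cdkn1c and Grb10. No other pair had an unadjusted p under 0.05 by either measure. These relations hold for the brightest probe sets alone, and other probe sets of Grb10 and Dlk1 ordered the hearts otherwise. Grb10 1425458_a_at, used here, was highest in mdx IKKβf/f heart 2, where Grb10 1425457_a_at was lowest. Dlk1 1449939_s_at, used here, was highest in mdx IKKβf/f heart 1, where Dlk1 1442724_at was lowest. Relations with those other probe sets were not tested. Neither the labels nor the values table gave a scan or hybridization batch to compare within.

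The wider pathway was followed through 5 gene lists, each gene by its brightest probe set. In none of them did a gene pass an adjusted p of 0.05 (limma over all probe sets). Of all genes, 6.20% had an unadjusted p under 0.05, 592 of them higher and 536 lower, and the median difference was -0.01. Leaving out 1 heart at a time, the medians of all lists except the PLAG list changed sign and lay between -0.09 and 0.07.

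Imprinted genes outside the network were balanced. Of 52 measured, 26 had a higher and 26 a lower mean, with a median difference of 0.01, and 3 (5.77%) had an unadjusted p under 0.05. These were H13, a signal peptide peptidase gene, higher by 0.23 ± 0.09 (SE), and Cobl, an actin nucleator gene, and Magel2, at -0.32 ± 0.13 (SE) and -0.16 ± 0.07 (SE). Ndn, which encodes the growth suppressor necdin, differed by 0.23 ± 0.10 (SE) and did not pass.

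The insulin-like growth factor axis had 29 genes measured, 14 with a higher and 15 with a lower mean and a median difference of 0.00. At an unadjusted p of 0.05, 7 genes (24.1%) passed, 5 higher and 2 lower. IGF binding protein genes made up 4 of the 5. Igfbp6, whose product prefers IGF2, read 9.71, 10.26, 9.19 and 10.05 in mdx HRTΔIKKβ hearts against 9.13, 8.97 and 8.88 in mdx IKKβf/f hearts. The groups did not overlap and differed by 0.81 ± 0.23 (SE; limma adjusted p = 0.80). Igfbp5 and Igfbp4 differed by 0.65 ± 0.27 (SE) and 0.43 ± 0.13 (SE), each with overlapping groups, and the dim Igfbp1 by 0.16 ± 0.06 (SE). On the signaling side, Pik3r1, the regulatory subunit of phosphoinositide 3-kinase, differed by 0.37 ± 0.13 (SE), the adaptor Gab1 by -0.22 ± 0.06 (SE) and the insulin receptor Insr by -0.16 ± 0.06 (SE), all with groups that did not overlap.

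The list of PLAG family genes and genes known as Plagl1 targets had 8 members, 6 with a higher mean, a median difference of 0.08 (0.16 without mdx HRTΔIKKβ heart 3 and 0.05 without heart 1) and 1 (12.5%) past an unadjusted p of 0.05. That gene was Socs3, a feedback inhibitor of cytokine signaling, at 9.47, 9.05, 9.48 and 8.03 against 7.57, 6.81 and 7.65. Every mdx HRTΔIKKβ heart was above every control, by 1.66 ± 0.38 (SE; limma adjusted p = 0.79), and its probe set is again an x_at type. Nppa, the atrial natriuretic peptide gene and also 1 of the atrial markers above, differed by 0.68 ± 0.36 (SE) with overlapping groups. Pparg and Tcf4 differed by 0.23 ± 0.10 (SE) and -0.14 ± 0.09 (SE).

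Cyclin-dependent kinase inhibitors and G1 cyclins, the class of Cdkn1c, had 15 genes measured, 7 with a higher mean, a median of -0.01 and 2 (13.3%) past an unadjusted p of 0.05. Cdkn1a, which encodes p21, read 9.68, 11.06, 11.20 and 9.87 against 8.69, 9.55 and 8.42, so its groups did not overlap, and it differed by 1.56 ± 0.44 (SE; limma adjusted p = 0.80). Ccnd2, cyclin D2, differed by -0.30 ± 0.07 (SE; limma adjusted p = 0.79), also without overlap. Cdkn2b and Ccnd3 differed by 0.09 ± 0.06 (SE) and 0.23 ± 0.15 (SE).

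Of the factors that set or keep imprints, 16 were measured, 7 with a higher and 9 with a lower mean, a median of -0.02 and 2 (12.5%) past an unadjusted p of 0.05. Ctcf, the insulator protein that binds the imprinting control region between Igf2 and H19, differed by 0.26 ± 0.07 (SE; limma adjusted p = 0.79), with groups that did not overlap. The paper, by contrast, reported no change of CTCF mRNA in mdx HRTΔIKKβ hearts. Tet1, a methylcytosine dioxygenase, differed by -0.23 ± 0.08 (SE), also without overlap. Tet3 and the methyltransferase Dnmt3b differed by -0.14 ± 0.08 (SE) and -0.09 ± 0.05 (SE).

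**Figure D4:**
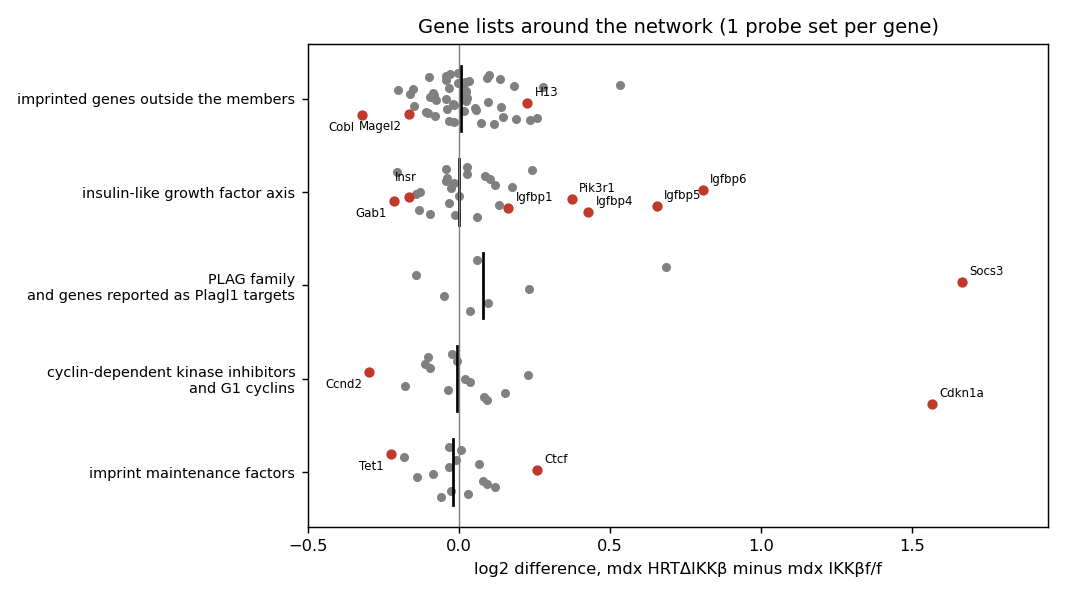
Difference of group means (mdx HRTΔIKKβ minus mdx IKKβf/f, log2) of each gene in the 5 lists, with the list median as a black line and genes at an unadjusted p under 0.05 in red with their names. The list medians lie between -0.02 and 0.08, and Socs3 (1.66) and Cdkn1a (1.56) stand farthest from 0.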

How the data were processed

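Biotin-labelled RNA of 7 whole hearts was hybridized to 7 arrays. The authors made the deposited log2 values by RMA, and the submitters' processing notes name Partek and Affymetrix Expression Console without versions. Such values understate changes of dim probe sets and cannot show a shift of all RNA at once. Array medians lay between 6.73 and 6.75, and pairs of arrays correlated at 0.988 to 0.996. The number of arrays limits the precision.

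Genes were named from the platform annotation (34945 probe sets with 1 gene symbol, 932 with several, 9160 with none), and the 9 member genes on the array were matched to RefSeq by Entrez ID. Groups came from the sample labels, and the hearts are taken as separate mice. All 45037 probe sets were fitted with limma 3.58.1 (lmFit, eBayes) in R 4.3.3, as a two-sided test without a filter, and p-values were adjusted by Benjamini-Hochberg over the array. The fit was tested on simulated data. The brightest probe set stands for a gene in lists, relations and likeness. Relations used exact permutation over all pairings of the 7 hearts. H19 had no probe set of its own, so 28 of the planned pairs could be made. Named genes were all members, up to 4 genes of each list with the smallest unadjusted p plus any at least 1.5-fold different, the 5 genes nearest to Plagl1, and Ikbkb, while Igfbp1 and Insr were added with their values known. The members and lists were chosen with earlier results of these data known. Alternatives covered centring, a second quantile normalization, dim, x_at and s_at probe sets, variance models, array weights, a replicate block, the methods' t-test, gene means, fold thresholds and leaving out each heart. Promoter windows are RefSeq sequences of GRCm38.p6, none listed for H19 or Cdkn1c.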

Additional observations from a re-analysis of the deposited data

Results flagged for a closer look

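In 30 groups of 4 mdx HRTΔIKKβ values, 1 per member probe set, 4 had a heart far from the other 3 (Dixon's ratio, 95% level). The nominal rate of 1 in 20 assumes values without ties, and each of the 4 groups held hearts with the same value. The share flagged over all probe sets was not worked out. All 4 were Meg3 probe sets, which share their RNA, so the count is not read as a result about the members. On 1426758_s_at the highest heart read 8.34 (ratio 0.844) and on 1452906_at 7.41 (ratio 0.877), in both cases mdx HRTΔIKKβ heart 2. On 1428764_at heart 2 was lowest at 6.55, and on 1428765_at heart 4 was highest at 4.57, each with a ratio of 1 because the other 3 hearts had the same value. These probe sets spanned 0.02 to 0.15 log2 units among the 4 hearts. No control group was screened in this way, since it held 3 hearts.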

How the results depend on the processing

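Median centring, a second quantile normalization, leaving out dim probe sets, trended or robust variance and the methods' t-test changed no direction of a member gene and no count by over 1.5 times, and the count of 0 adjusted calls held under each (unadjusted: 2735 by limma, 2086 by the methods' t-test). Leaving out x_at and s_at probe sets brought Plagl1 to 0.28 and the member probe sets at least 1.5-fold different from 1 to 0, while the 1.3-fold threshold gave 4. Over all probe sets, 465 at 1.5-fold became 1217 at 1.3-fold and 132 at 2-fold. The mean of all probe sets of a gene gave 0.56 for Plagl1, -0.058 for Igf2r and 0.16 for Grb10, with 0 partner genes at an unadjusted p under 0.05, where 2 partner probe sets had passed. Array weights gave 4 partner probe sets at that p, where 2908 of all probe sets passed, and Mest at -0.0417. The atrial score as a covariate, added after seeing the data, gave 0.77 for Plagl1, 0 partner probe sets, and -0.0028 for Igf2, -0.0205 for Igf2r, -0.0666 for Meg3, -0.0131 for Dlk1 and -0.19 for Mest. The list medians moved by at most 0.08 under these and all other settings, and all but that of the PLAG list changed sign under some of them (imprinted genes from 0.0056 to -0.0034 under the second quantile normalization). By the root mean square gap, 3 of the 5 genes nearest to Plagl1 were shared.

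Leaving out 1 heart at a time gave 0.90 to 1.29 for Plagl1 and 1 to 3 member probe sets at 1.5-fold (2 without mdx HRTΔIKKβ heart 1, 3 without mdx IKKβf/f heart 1). Partner probe sets at an unadjusted p under 0.05 numbered 1 to 5 (1 without mdx HRTΔIKKβ heart 3, 4 without its heart 1, 5 without mdx IKKβf/f heart 1). Over all 45037 probe sets the limma counts in these settings were 3362, 2548 and 2121, against 2735 with every heart. The partner counts include several probe sets of 1 gene, were not tested and are not read as a result about the partners. Partner probe sets without overlap rose from 2 to 7 without mdx IKKβf/f heart 1 and 4 without its heart 2. Smaller groups separate more readily, and the share over all probe sets without these hearts was not worked out. The rise is therefore not read as a result about the partners. List genes at that p numbered 11 to 16, against 15. Adjusted calls over the array numbered 0 to 1, the 1 without mdx HRTΔIKKβ heart 1. Mest ran from -0.15 to 0.23, with -0.0085 and -0.0015 without mdx HRTΔIKKβ hearts 2 and 3, Meg3 from -0.0538 to 0.19, Igf2 from 0.03 (without mdx HRTΔIKKβ heart 4) to 0.40, Dlk1 from 0.0092 (without mdx IKKβf/f heart 2) to 0.13 (without its heart 1), Cdkn1c from -0.32 to -0.14, Peg3 from 0.34 to 0.71, Grb10 from -0.14 to -0.03 (without mdx IKKβf/f heart 2) and Igf2r from -0.0227 to 0.11. The cause of these shifts was not tested.

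Hearts with the same number did not deviate together (r = -0.08, -0.38 and -0.04 for numbers 1 to 3). The labels do not say that the numbers pair hearts, and with so few hearts these values cannot settle whether they do. With the replicate block, in which mdx HRTΔIKKβ heart 4 has no partner and adds nothing, 8 list genes had an unadjusted p under 0.05 in place of 15, the differences of Plagl1 and Igf2 were 1.004 and 0.03, and 2 partner probe sets had an unadjusted p under 0.05, of which 1 was shared with the fit without the block. Grb10 1425457_a_at was shared, Cdkn1c 1417649_at was gained (difference -0.32) and Igf2r 1424111_at was lost (difference -0.15), all with a limma adjusted p of 0.88.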

Other observations

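The probe set that reads H19, 1448194_a_at, is annotated to Mir675 and H19 together, since the microRNA lies within the H19 transcript, and so was outside the rule for members. It read 9.73, 8.95, 9.34 and 10.66 in mdx HRTΔIKKβ hearts and 11.21, 7.60 and 8.79 in mdx IKKβf/f hearts. The controls held both the highest and the lowest heart, 3.61 log2 units apart. The difference was 0.47 ± 0.80 (SE; limma adjusted p = 0.91). Mest 1423294_at and Dlk1 1449939_s_at also had their highest value in mdx IKKβf/f heart 1 and their lowest in heart 2, over much narrower ranges of 0.76 and 0.25. The other Dlk1 probe set, 1442724_at, had its lowest value in mdx IKKβf/f heart 1. In mdx IKKβf/f heart 1 the muscle regeneration score (Myog, Myod1, Myh3, Myh8, Pax7 and Mymk) was also highest, at 1.26, and its part in these values was not tested.

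A probe set annotated to Airn and Igf2r together, 1440979_at, read 6.48, 6.39, 6.51 and 6.48 against 6.56, 6.48 and 6.32, a difference of 0.01 ± 0.07 (SE). Airn is the paternally expressed noncoding RNA that overlaps Igf2r on the opposite strand.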
